A study of Mus musculus with 6 samples.

Results

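Box C/D small nucleolar RNAs were followed in the ribosome-associated RNA of mPFC D2 neurons, with 3 libraries from Ctrl mice and 3 from mice with Gsk3sKO in mPFC D2. The members were taken by name, as every gene whose symbol begins with Snord and a digit, and the rule used no measured value. It found 84 genes with 1 transcript each, of 47729 genes and 115220 transcripts in the whole table. All mice were adult males of the D2Cre/LSL-Flag-Cas9/RiboTag line on a C57BL/6 background, in which a Cre driven by a Drd2 bacterial artificial chromosome switches on both Cas9 and a hemagglutinin-tagged Rpl22 ribosomal protein. Ctrl mice received AAV GFP in the mPFC and Gsk3sKO mice received AAV Gsk3sgRNA/GFP, so both groups carried the same 3 alleles and differed in the guide RNA. The mPFC was taken 3 weeks later and tagged ribosomes were pulled down with their RNA, which went into a stranded total RNA library. Tagged ribosomes come from every cell in the dissected tissue that carried the Cre, whether or not the virus reached it. The labels do not say whether a library is 1 mouse or a pool, so p-values here measure only the spread between libraries, which may be technical.

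Box C/D RNAs are short noncoding RNAs of the nucleolus that carry a C box near the 5′ end and a D box near the 3′ end. With the proteins Nop56, Nop58, Snu13 and the methyltransferase Fbl they form particles that add a methyl group to the ribose of ribosomal RNA and of some spliceosomal RNAs, at sites chosen by base pairing. A few of them serve in the cutting of the ribosomal RNA precursor instead. Most mammalian members are excised from introns of a host gene, many of them genes for ribosomal proteins or noncoding RNAs named Snhg, and act in the nucleus rather than on the cytoplasmic ribosomes that RiboTag targets.

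The sequences below are those of 8 members on which the values turn, as the GENCODE M21 transcripts of GRCm38 give them, 5′ to 3′. They were chosen for a low p, for a high level or for a role in precursor processing. Capitals mark the box C letters TGATGA, taken at their first occurrence, and the last box D letters CTGA.
Snord14c: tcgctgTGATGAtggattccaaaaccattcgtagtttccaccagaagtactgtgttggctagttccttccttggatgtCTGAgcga
Snord14d: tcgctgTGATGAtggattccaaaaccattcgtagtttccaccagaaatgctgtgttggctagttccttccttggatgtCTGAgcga
Snord87: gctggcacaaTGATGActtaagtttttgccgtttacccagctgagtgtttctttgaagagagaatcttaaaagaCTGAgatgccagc
Snord8: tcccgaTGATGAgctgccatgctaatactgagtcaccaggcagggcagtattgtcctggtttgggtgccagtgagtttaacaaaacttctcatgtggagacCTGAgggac
Snord59a: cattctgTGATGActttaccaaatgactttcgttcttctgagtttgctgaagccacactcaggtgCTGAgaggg
Snord22: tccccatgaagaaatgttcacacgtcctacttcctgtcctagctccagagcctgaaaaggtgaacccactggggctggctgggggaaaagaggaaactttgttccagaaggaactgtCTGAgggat
Snord15b: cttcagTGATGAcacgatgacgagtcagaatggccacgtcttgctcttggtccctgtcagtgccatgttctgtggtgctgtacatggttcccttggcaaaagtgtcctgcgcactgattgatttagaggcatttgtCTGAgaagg
Snord118: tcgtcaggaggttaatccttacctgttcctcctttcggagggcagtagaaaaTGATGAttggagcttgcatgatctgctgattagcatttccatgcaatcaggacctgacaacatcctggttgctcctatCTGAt

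In GRCm38, Snord14c lies at chr9:40803583-40803668 on the plus strand and Snord14d at chr9:40803995-40804080 on the plus strand, both within Hspa8. Snord22 lies at chr19:8725866-8725991 on the plus strand within Snhg1, and Snord15b at chr7:99479563-99479707 on the minus strand within Rps3. These 4 overlap an annotated exon of another transcript on their strand. Snord87 at chr1:9942463-9942549 on the minus strand in Snhg6, Snord8 at chr14:52209785-52209894 on the minus strand in Chd8 and Snord59a at chr10:128084143-128084216 on the plus strand in Atp5b lie in introns with no such overlap. Snord118 at chr11:69073427-69073561 on the plus strand is in no annotated host.

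Snord14c and Snord14d are both 86 bases long and differ at 2 positions counted from the 5′ end, written as G47A and A49G with the Snord14c base first. Reads from one can therefore be placed on the other, and their separate values are uncertain. Snord22 has no TGATGA, and variants of the C box were not searched for. In Snord118 the TGATGA begins at base 53, where the other printed members that have it begin it between bases 7 and 11. Searched on the transcript strand alone, TGATGA followed by CTGA was present in 60 of the 84 members (71.4%), in 0 of 40 box H/ACA RNAs and in 340 of 6333 other genes shorter than 200 bases (5.37%). The last set includes RNAs annotated as small nucleolar under other names. Both motifs lay within 20 bases of the ends in 53 members, in 0 of the 40 box H/ACA RNAs and in 262 of the 6333 other genes (4.14%).

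The members were 64 to 238 bases long, with a median of 79.5, and 12 of them had 100 bases or more. Their levels are given in FPKM, the number of fragments scaled to the length of the RNA and to the depth of the library. Read counts were not given. From the steps between low values, depth was about 45.6, 32.0 and 23.6 M reads in Ctrl replicates 1 to 3 and 41.5, 28.9 and 30.0 M in Gsk3sKO replicates 1 to 3. At that depth 1 read in an RNA of 80 bases is worth 0.27 to 0.53 FPKM, so a level of 1 FPKM rests on very few reads. Of the 84 members, 23 were listed at 0 in all 6 libraries, 61 were above 0 in at least 1 library and 19 were above 0 in all 6. Members above 0 numbered 38, 52 and 51 in Ctrl and 45, 27 and 33 in Gsk3sKO.

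**Figure D1:**
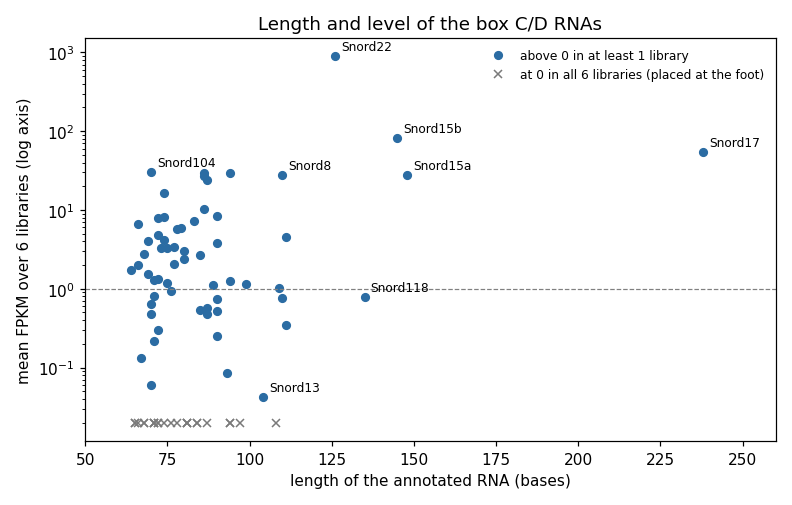
Mean FPKM over the 6 libraries (log axis) against the length in bases of each of the 84 box C/D RNAs. The dashed line is the filter of 1 FPKM, crosses at the foot are the 23 members listed at 0 in every library, and Snord22 stands more than 10-fold above the next member, Snord15b.

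Levels ran over several orders of magnitude and were led by 1 member. Snord22 had 1373, 1622 and 688 FPKM in Ctrl and 537, 736 and 420 FPKM in Gsk3sKO, which was 56.8% to 80.4% of the summed FPKM of all members. Snord15b and Snord17 came next, followed by Snord104, Snord21, Snord14d, Snord8 and Snord15a. Of these 8 most abundant members 6 have a host gene that codes for a protein, while Snord22 lies in the noncoding Snhg1 and Snord104 in no annotated host. Over the 61 members above 0, the mean FPKM was weakly related to length (Spearman's rho 0.14) and, over the 58 with a host above 0, to the mean FPKM of the host (rho 0.24). These are descriptions across genes that share libraries.

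The first comparison asked whether levels of box C/D RNAs differed between Gsk3sKO and Ctrl. The summed FPKM of the 84 members was lower in Gsk3sKO, and 16 of the 42 tested were lower at an unadjusted p under 0.05 (5.2% of all gene totals). The sum was 1865, 2722 and 1158 in Ctrl and 830, 916 and 741 in Gsk3sKO. The highest Gsk3sKO sum was under the lowest Ctrl sum, and the 3 Gsk3sKO sums were much closer together than the 3 Ctrl sums. The means were 1915 ± 783 (SD, n = 3) and 829 ± 87.5 (SD, n = 3), a 2.31-fold difference. Without Snord22 the sums were 491, 1099 and 470 against 293, 180 and 320 FPKM, which again did not overlap and differed 2.60-fold. In bulk RNA, fewer cells of a type and less RNA per cell cannot be told apart.

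Gene totals with a mean of at least 1 FPKM over the 6 libraries were tested on log2(FPKM + 1) with limma, and 42 members passed this filter. Of these, 16 had an unadjusted p under 0.05 with a lower level in Gsk3sKO (38.1%), where 5.2% of all 12874 gene totals tested did. No member had such a p with a higher level, against 1.36% of all gene totals. The fold change was negative for 37 of the 42, with a median of -1.06 on the log2 scale, where the median of all gene totals was -0.06. None of the 16 passed after Benjamini-Hochberg adjustment over all gene totals in limma, with adjusted p from 0.228 to 0.755, and 0.0466% of all gene totals did. They are therefore named here for their unadjusted p. Groups did not overlap, with every Gsk3sKO library lower, for 11 tested members, against 8.3% of all gene totals. Of the 42, 30 had a mean of at least 1 FPKM in both groups, 9 in Ctrl alone and 3 in Gsk3sKO alone, and 15 of the 16 came from the first set. The exception was Snord110. The sign of the members carried by 1 group follows from the filter, as all 9 of the Ctrl set were negative and all 3 of the Gsk3sKO set positive. Of the 30 with a mean of at least 1 FPKM in both groups, 28 were negative, with a median of -1.11. Among the other 42 members the filter was missed by 19 that were above 0 somewhere. Over all 61 members above 0, without the filter, 11 had an unadjusted p under 0.05 and were lower, where 3.3% of all gene totals did.

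**Figure D2:**
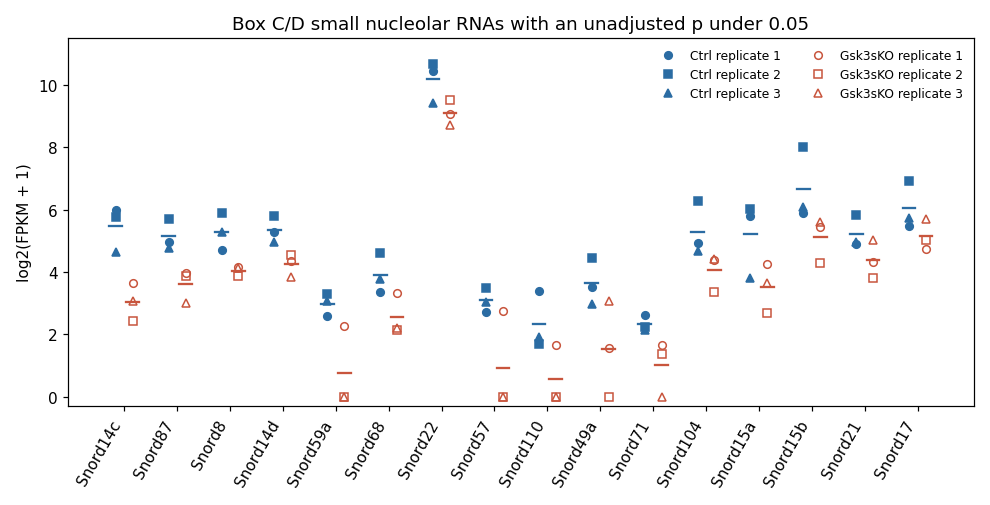
Level of the 16 box C/D RNAs with an unadjusted p under 0.05, as log2(FPKM + 1), in each Ctrl library (filled) and each Gsk3sKO library (open), ordered by p. Short lines are group means of 3 libraries, and the marker shape gives the replicate number, by which libraries were not treated as paired. All 16 means are lower in Gsk3sKO and Ctrl replicate 2 is the highest library for 13 of the 16.

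The member with the lowest p was Snord14c. The Snord14 copies take part in cutting the precursor of the small-subunit RNA and also guide a methylation there. Snord14c had 62.7, 53.4 and 24.2 FPKM in Ctrl and 11.6, 4.40 and 7.42 FPKM in Gsk3sKO. Its groups were far apart, at 46.8 ± 20.1 and 7.79 ± 3.59 FPKM (SD, n = 3), a 6.00-fold difference. On the log2 scale the limma estimate was -2.42 (SE 0.40), with an unadjusted p of 0.000266 and a Benjamini-Hochberg adjusted p of 0.228. Its near-identical copy Snord14d, in the same host gene Hspa8, had 37.7, 55.0 and 30.1 FPKM in Ctrl and 19.5, 22.1 and 13.3 FPKM in Gsk3sKO. These groups did not overlap either, and the limma estimate was -1.10 (SE 0.26, unadjusted p 0.00249). Since reads could be shared between the copies, the sum of Snord14c, Snord14d and Snord14e is the safer value. It was 100.4, 108.4 and 54.3 FPKM in Ctrl and 31.0, 26.5 and 23.9 FPKM in Gsk3sKO, a 3.23-fold difference with no overlap. Snord14e was below 0.01 FPKM in 5 libraries and at 3.15 in Gsk3sKO replicate 3. Snord14a was above 0 in Gsk3sKO replicate 3 alone, at 3.44 FPKM.

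Snord22, which is needed for maturation of the small-subunit RNA, overlapped between groups at 1 point, because Gsk3sKO replicate 2 was above Ctrl replicate 3. Its limma estimate was -1.07 (SE 0.34, unadjusted p 0.0123), a 2.18-fold difference of the means. Snord118 and Snord13 were close to the limit of detection. Snord118, required for maturation of the large-subunit RNAs, had 0, 3.62 and 1.08 FPKM in Ctrl and was listed at 0 in the 3 Gsk3sKO libraries. Snord13, which guides an acetylation of the small-subunit RNA, was above 0 in Ctrl replicate 2 alone, at 0.256 FPKM. Both missed the filter and were not tested, and neither lies inside an annotated host. Snord3, the most abundant processing RNA in most tissues, was not analysed here.

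Snord87, which guides methylation of ribosomal RNA, had the next lowest p after Snord14c. It had 30.3, 51.3 and 26.1 FPKM in Ctrl and 14.7, 13.7 and 7.04 FPKM in Gsk3sKO, with no overlap. The limma estimate was -1.53 (SE 0.32, unadjusted p 0.0013). Snord59a, a guide for the small-subunit RNA, had 5.08, 8.86 and 7.32 FPKM in Ctrl but 3.79, 0 and 0 FPKM in Gsk3sKO. Its estimate of -2.23 (SE 0.59, unadjusted p 0.00495) rests on few reads, since the highest library held about 21 of them and 2 libraries were listed at 0. Snord68, a guide inside Rpl13, had 9.36, 23.4 and 12.6 FPKM against 9.02, 3.47 and 3.65 FPKM. Its groups were separated only narrowly, by Ctrl replicate 1 and Gsk3sKO replicate 1, and the estimate was -1.35 (SE 0.40, unadjusted p 0.00946).

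The pair in Rps3, Snord15a and Snord15b, guides methylation of the large-subunit RNA. Snord15b had 58.7, 257 and 66.1 FPKM in Ctrl and 42.7, 18.4 and 47.5 FPKM in Gsk3sKO. Ctrl replicate 2 stood far above the rest. The limma estimate was -1.55 (SE 0.56, unadjusted p 0.0242), and without that library, where the groups still did not overlap, it was -0.87 (unadjusted p 0.0489). Snord15a had 54.3, 64.5 and 13.0 FPKM against 18.1, 5.37 and 11.7 FPKM, so that Ctrl replicate 3 lay among the Gsk3sKO libraries. Its estimate was -1.68 (SE 0.60, unadjusted p 0.0226). Snord21 in Rpl5 overlapped as well, at 28.8, 55.4 and 30.4 FPKM against 18.8, 13.1 and 31.9 FPKM. The estimate for Snord21 was -0.84 (SE 0.34, unadjusted p 0.0398). Snord17, the longest member, had 43.2, 120.0 and 52.3 FPKM against 25.8, 31.9 and 50.8 FPKM, with an unadjusted p of 0.0497.

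Snord104 has no annotated host and had 29.4, 75.9 and 24.8 FPKM in Ctrl against 20.1, 9.27 and 20.2 FPKM in Gsk3sKO. The groups did not overlap, and the estimate was -1.24 (SE 0.44, unadjusted p 0.0212). Snord49a, which lies in the noncoding 2410006H16Rik, had 10.6, 20.7 and 6.95 FPKM against 1.95, 0 and 7.36 FPKM, with overlap at Gsk3sKO replicate 3. Its estimate was -2.11 (SE 0.71, unadjusted p 0.0167). Snord71 in Ap1g1 was low in every library, at 5.15, 3.71 and 3.39 FPKM against 2.20, 1.60 and 0 FPKM, without overlap and with an unadjusted p of 0.018.

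Snord57 and Snord110 are both cut from Nop56, the gene of a core protein of the same particles. Snord57 had 5.61, 10.3 and 7.28 FPKM in Ctrl and 5.71, 0 and 0 FPKM in Gsk3sKO, where Gsk3sKO replicate 1 was within the Ctrl range. Snord110 had 9.44, 2.22 and 2.79 FPKM against 2.19, 0 and 0 FPKM, so the groups almost touched. Unadjusted p was 0.013 for Snord57 and 0.0167 for Snord110.

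Not all members act on ribosomal RNA. Snord8, in an intron of Chd8, directs a methylation on the U6 RNA. It had 25.0, 58.5 and 37.7 FPKM in Ctrl and 16.8, 13.7 and 16.3 FPKM in Gsk3sKO. The Gsk3sKO libraries were close to each other and all lay below the lowest Ctrl library. The limma estimate was -1.24 (SE 0.28, unadjusted p 0.00193, Benjamini-Hochberg adjusted p 0.429).

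Of the tested members 5 had a positive estimate, and none of these had an unadjusted p under 0.05 in limma. Snord1b had 0, 0 and 0.218 FPKM in Ctrl and 1.47, 0 and 5.34 FPKM in Gsk3sKO, with an estimate of 1.23 (SE 0.62, unadjusted p 0.0823). It differs from Snord1c by 2 bases, so the reads of the pair cannot be kept apart with certainty. Snord2, Snord78, Snord85 and Snord35a had estimates of 0.92, 0.99, 0.40 and 0.04. At the other end, Snord55 was lower in every Gsk3sKO library than in any Ctrl library but had an unadjusted p of 0.06. In addition, 10 members were above 0 in Ctrl and listed at 0 in the 3 Gsk3sKO libraries, among them Snord61, Snord70 and Snord118. Of the 10, 6 were seen in 1 Ctrl library and 4 in 2, and Snord14a was the only member with the reverse pattern. Of the 61 members above 0 somewhere, the 10 are 16.4%, and the same pattern held for 4315 of 26696 genes (16.2%), so the members were near the background. The reverse pattern held for 6.55% of all genes. The mean estimated read number had a median of 78.1 over the 16 members with a low p and of 7.54 over the other 26 tested. The SE of those 26 ran from 0.43 to 1.12 on the log2 scale, so that a difference of the size seen in Snord22 could not have been told from 0 for most of them.

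The Gas5 cluster, one of the best known groups of box C/D RNAs, was represented by Snord47, Snord78 and 2 overlapping gene entries for Snord80. Snord47 had 0, 13.1 and 6.22 FPKM in Ctrl and 0.748, 0 and 0 FPKM in Gsk3sKO (unadjusted p 0.0516). The cluster summed to 0, 20.6 and 10.3 FPKM against 8.44, 0 and 4.99 FPKM, and the groups overlapped. Gas5 itself had an estimate of -0.47 (SE 0.32, unadjusted p 0.177). Of the imprinted neuronal families, Snord116l1 and Snord116l2 have the same sequence and were both listed at 0 in all libraries, although the level of their host Snhg14 averaged 40.5 FPKM. The families Snord113, Snord114 and Snord115 were not analysed here.

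The next comparison set the members beside the genes that hold them. Containment on the same strand in the annotation gave 54 host genes for 81 members, and 48 hosts passed the filter. Of these, 2410006H16Rik and Rpl37 were lower and Nop56 and Ccar1 higher at an unadjusted p under 0.05 in limma. That is 4.17% of the hosts in each direction, against 5.2% lower and 1.36% higher of all gene totals. Rpl37 and Ccar1 hold Snord72 and Snord98, which were listed at 0. The median log2 fold change of the 48 hosts was -0.03. The summed FPKM of the hosts was 5006, 4771 and 4696 in Ctrl and 4868, 4668 and 4469 in Gsk3sKO, with overlapping groups and a 1.03-fold difference. Of the 39 tested members with a tested host, 34 had a more negative estimate than their host. This count includes 15 of the 16 members with a low p, for which it follows largely from how they were picked. The 39 also include members with a mean of at least 1 FPKM in Ctrl alone, whose negative sign follows from the filter.

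Hspa8, a chaperone and the host of Snord14c and Snord14d, averaged 1098 FPKM in Ctrl and 1170 FPKM in Gsk3sKO, with an estimate of 0.09 (SE 0.14). Rps3 was at 43.7 and 40.6 FPKM on average, with an estimate of -0.11 (SE 0.17), while both of its members had estimates below -1.5. Nop56 went the other way from the 2 RNAs it holds. It had 34.1, 33.7 and 37.9 FPKM in Ctrl and 40.9, 49.2 and 46.6 FPKM in Gsk3sKO, with an estimate of 0.36 (SE 0.14, unadjusted p 0.0291). The host of Snord49a was the one that was lower with its member. The level of 2410006H16Rik was 40.5, 11.3 and 9.18 FPKM in Ctrl and 2.11, 4.15 and 5.45 FPKM in Gsk3sKO, with an estimate of -1.88 (SE 0.52, unadjusted p 0.00635). Snhg1 and Snhg6, whose spliced RNAs code for no protein, were at 1.67 and 1.48 FPKM on average in Ctrl, far below the Snord22 and Snord87 that they hold.

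**Figure D3:**
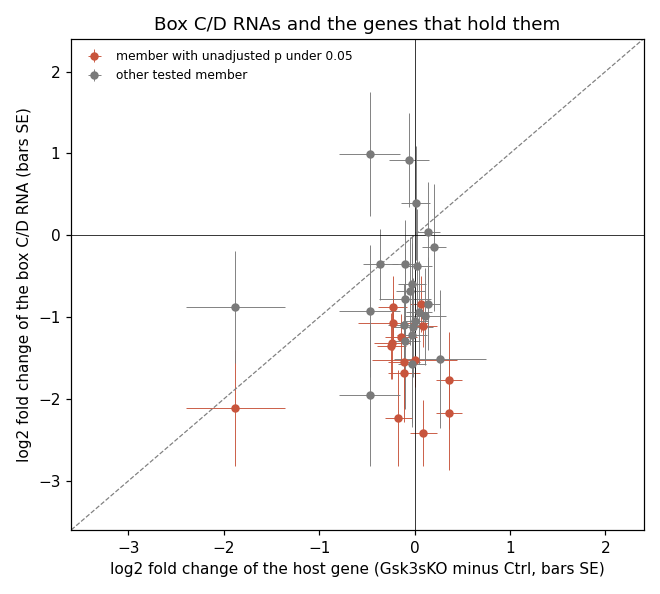
Log2 fold change (Gsk3sKO minus Ctrl) of each of the 39 box C/D RNAs tested with a tested host, against that of its host, with bars of 1 SE on both axes and members of 1 host sharing a position on the horizontal axis. The dashed line marks equal change. Hosts lie close to 0 except 2410006H16Rik at -1.88, and 34 of the 39 members lie below the line. The 39 include members picked for a low p and members that passed the filter through Ctrl alone, for which this position follows largely from the choice.

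A member inside a host can take up reads from unspliced host RNA or from a transcript that retains the intron, and 41 of the 84 overlap an exon of another transcript on their strand. Of the 24 tested members with such an overlap 7 had a low p, and of the 18 without it 9 did. All of these were lower, as were 5.2% of all gene totals at that p. The part of host reads in the members' differences was not tested. The members in protein-coding hosts summed to 403, 868 and 375 FPKM in Ctrl and 230, 155 and 240 FPKM in Gsk3sKO, a 2.64-fold difference with no overlap. Those in noncoding hosts, without Snord22, summed to 58.9, 151 and 68.7 FPKM against 42.8, 15.5 and 60.6 FPKM, where Gsk3sKO replicate 3 was above Ctrl replicate 1. The 72 members under 100 bases differed 2.46-fold and the 11 of 100 bases or more without Snord22 differed 2.81-fold, both without overlap.

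The genes for proteins that act with these RNAs showed no such shift in their ribosome-associated RNA. A list of 43 genes for core proteins, assembly factors, precursor processing and end trimming was matched for 42, all of which passed the filter. Of these 1 was lower and 1 higher at an unadjusted p under 0.05, and the median log2 fold change was -0.01. The lower one was Rrp9, which codes for a protein of the Snord3 particle, with 9.75, 7.52 and 6.88 FPKM in Ctrl and 4.84, 2.99 and 3.29 FPKM in Gsk3sKO. Its groups did not overlap, and its estimate was -0.95 (SE 0.24, unadjusted p 0.00416). The higher one was Nop56. Fbl had 24.7, 27.0 and 12.5 FPKM against 21.9, 13.1 and 11.9 FPKM (estimate -0.40, unadjusted p 0.244). Nop58 had an estimate of 0.12 and Snu13, listed under its older symbol Nhp2l1, of -0.11, with unadjusted p of 0.647 and 0.472.

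The last comparison placed the members beside other short RNAs of the same libraries, since these moved in the same direction. Of 27 box H/ACA RNAs tested, the nucleolar class that guides pseudouridylation, 11 were lower at an unadjusted p under 0.05 (40.7%) and 0 higher, with a median of -1.29 on the log2 scale. Of 333 other genes under 200 bases, 108 were lower (32.4%) and 9 higher, with a median of -0.86. Among them, RNAs annotated as small nucleolar but named otherwise were lower in 63 of 147 (42.9%), rRNA genes in 17 of 19 and snRNA genes in 9 of 51. Of 53 miRNA loci, 11 were lower and 4 higher, with a median of -0.62. Of 11 genes annotated as scaRNA, 1 was lower and 1 higher, with a median of -0.56. Mitochondrial tRNAs were lower in 0 of 19, with a median of 0.02. Of the 12472 genes outside these classes, 534 were lower (4.28%).

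**Figure D4:**
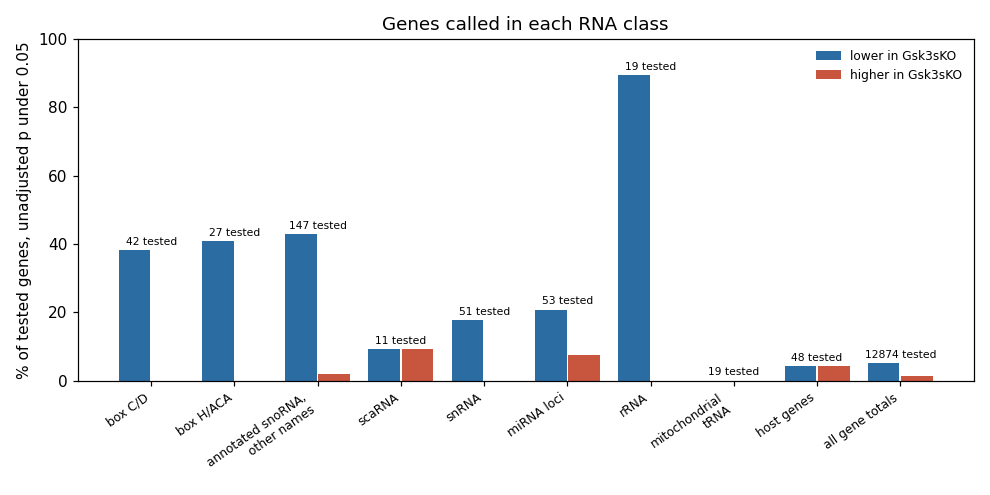
Share of tested genes with an unadjusted p under 0.05 in limma, lower (blue) and higher (red) in Gsk3sKO, by RNA class, with the number tested above each pair of bars. Box C/D RNAs (38.1% lower) sit near box H/ACA RNAs (40.7%) and other annotated small nucleolar RNAs (42.9%), and host genes (4.17%) near all gene totals (5.2%).

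The share of the FPKM in genes under 200 bases also differed between libraries. It was 39.9%, 38.9% and 21.8% in Ctrl and 21.4%, 17.6% and 12.4% in Gsk3sKO, with Ctrl replicate 3 next to the Gsk3sKO libraries. A single short RNA, Gm23935, held 24.3%, 24.9% and 12.9% in Ctrl and 13.4%, 12.2% and 7.8% in Gsk3sKO. The other short genes here leave out Gm23935 and the genes named Snord or Snora followed by a digit. They still hold 1356 genes annotated as small nucleolar under other names, so they are not free of nucleolar RNA. Their sum was 67334 ± 29215 FPKM in Ctrl and 23401 ± 8245 FPKM in Gsk3sKO (SD, n = 3), a 2.88-fold difference. Genes of 200 bases or more differed 1.03-fold in their sum. Per 1000 FPKM of those other short genes, the members made up 20.1, 36.8 and 32.8 FPKM in Ctrl and 25.4, 44.3 and 43.9 FPKM in Gsk3sKO. These ratios overlapped between the groups. When each library was rescaled to the other short genes, a choice made after the data were seen, the median of the tested members was 0.15 on the log2 scale, with 4 lower and 5 higher at an unadjusted p under 0.05. That scaling moved the median of all gene totals to 1.18 and the share of them that were higher to 57.4%, with 0.37% lower. The part of the total share of short RNA in the members' differences was not tested.

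**Figure D5:**
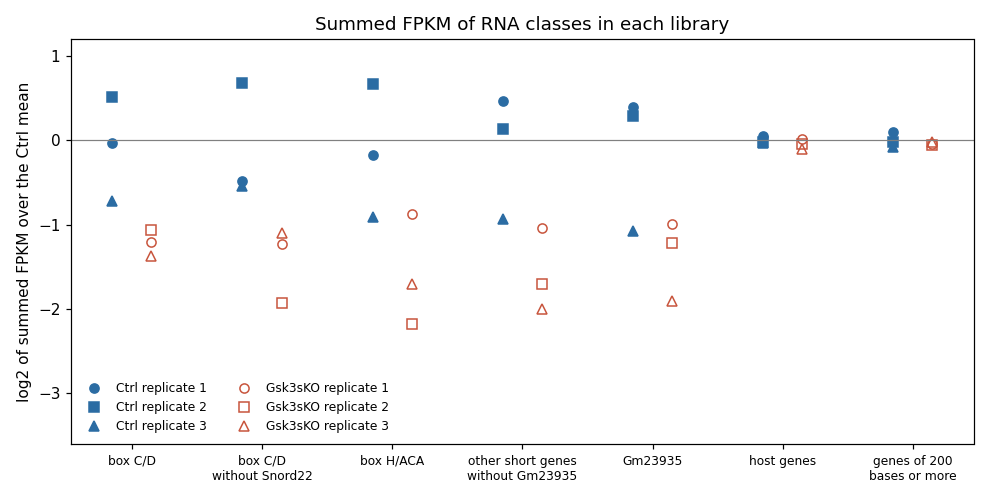
Summed FPKM of RNA classes in each library, as the log2 ratio to the Ctrl mean of that class, with Ctrl filled and Gsk3sKO open and marker shape for the replicate number. The short classes are lower in Gsk3sKO by 2.31-fold for box C/D RNAs and 2.88-fold for other short genes without Gm23935, while host genes and genes of 200 bases or more lie near 0.

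Single libraries mattered for many members. Ctrl replicate 2 was the highest library for 28 of the 42 tested. Leaving out each library in turn, Snord14c, Snord87, Snord8, Snord14d, Snord59a and Snord68 had an unadjusted p under 0.05 in all 6 fits. Without Ctrl replicate 3, Snord14c also passed adjustment (limma, Benjamini-Hochberg adjusted p 0.0359). Snord22 lost it without Gsk3sKO replicate 3 (p 0.0513), Snord57 without the same library (p 0.0533), Snord49a without Ctrl replicate 2 (p 0.0592), Snord71 without Ctrl replicate 1 (p 0.0602) and Snord15b without Gsk3sKO replicate 2 (p 0.0905), all in limma without adjustment. Snord104 lost it in 2 of the 6 fits, without Ctrl replicate 2 or Gsk3sKO replicate 2, with an unadjusted p of up to 0.079 and estimates of -0.75 and -0.89. Snord21 and Snord17 lost it without Ctrl replicate 2, Gsk3sKO replicate 1 or Gsk3sKO replicate 2, with p up to 0.144 and 0.16, and estimates as near 0 as -0.55 and -0.44. Snord15a lost it without Ctrl replicate 1, Ctrl replicate 2 or Gsk3sKO replicate 2 (p up to 0.0843), and Snord110 without Ctrl replicate 1, Gsk3sKO replicate 2 or Gsk3sKO replicate 3 (p up to 0.0652). The estimate of Snord71 was -0.80 without Gsk3sKO replicate 3 and that of Snord49a -1.34 without Gsk3sKO replicate 2, both with p still under 0.05. Without Ctrl replicate 2 the median of the 39 members tested was -0.67, and 11 of them were lower at an unadjusted p under 0.05, against 3.41% of 12771 gene totals. Of 24 box H/ACA RNAs tested there, 7 were lower and 1 higher, with a median of -0.72.

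As a check of the labels, Gsk3b itself had 35.6, 53.8 and 56.5 FPKM in Ctrl and 36.9, 37.0 and 33.6 FPKM in Gsk3sKO, with an estimate of -0.40 (unadjusted p 0.0648). Ctrl replicate 1 lay at the Gsk3sKO level. The paper scored the knockout by staining for GSK3β protein and found most Flag-Cas9 neurons of the mPFC without signal. These RNA values do not measure protein, so they are a weak check. Drd2, the defining gene of the labelled cells, was present at 7.22 ± 6.33 FPKM in Ctrl and 7.19 ± 1.18 FPKM in Gsk3sKO (SD, n = 3). Summed over 6 genes, neuronal markers were at 2143 and 2154 FPKM on average. Astrocyte (48.4 and 45.5), oligodendrocyte (142 and 141), microglial (11.1 and 9.30) and endothelial (17.9 and 18.3) sums were far lower and overlapped between the groups. Single markers could still differ. The microglial C1qa had 5.18, 4.30 and 5.73 FPKM in Ctrl and 2.53, 1.51 and 3.56 FPKM in Gsk3sKO, and the oligodendrocyte Mog had 3.996, 3.02 and 2.67 FPKM against 1.81, 0 and 0 FPKM, both without overlap. Their part in the members' differences was not tested.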

How the data were processed

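RNA from RiboTag immunoprecipitation was sequenced in 3 Ctrl and 3 Gsk3sKO libraries, grouped by the submitters' labels. The authors deposited FPKM per transcript and library, and the processing notes name HISAT2 2.1.0, SAMtools 1.9, StringTie 1.3.4d and GRCm38. For settings, multimapped reads and the use of strand, the methods were not given in the sources used here. The authors' fold, p and q columns were not used.

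FPKM was summed by gene and fitted with limma 3.58.1 in R 4.3.3 (lmFit, eBayes with trend) on log2(FPKM + 1), without covariates, for gene totals with a mean of at least 1 FPKM. A fold change on this scale understates changes of low genes. Tests were 2-sided, and exact permutation of 3 against 3 libraries cannot go below 0.1. The fit was tested on simulated data. Length, host, exon overlap and sequence came from GENCODE M21, which held all 84 members. Depth came from the steps between low values, 28.6% to 47.7% of which lay within 0.05 of a whole read, so it is approximate. Intervals from counts were not computed. Summaries used Python 3.11.15, pandas 2.3.3, scipy 1.17.1 and matplotlib 3.10.9.

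Members and lists were chosen with earlier results of these data known. Named are members with an unadjusted p under 0.05, the 8 most abundant, those with a processing role, imprinted families, the Gas5 cluster, hosts, core proteins, Gsk3b and Gm23935. Snord55 and other members without such a p, Rrp9, Rpl37, Ccar1, C1qa and Mog were named after their values were seen.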

Additional observations from a re-analysis of the deposited data

How the results depend on the processing

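The count of lower members stayed within 1.5 times of 16 under every filter, pseudocount, model and leave-one-out alternative, between 11 and 21. The number tested changed too, with 11 of 61 lower without a filter and 11 of 19 at 5 FPKM. Of all gene totals, 3.3% to 7.23% were lower in these alternatives. Every estimate of the 16 was negative there, which follows largely from picking them in these same libraries. Under the filter of 5 FPKM, 4 of them (Snord59a, Snord57, Snord110 and Snord71) had no estimate. Rescaling to the other short genes, added after the data were seen, was the exception, with 4 members lower, 5 higher, a median of 0.15 and a log2 ratio of the sums of 0.34. There the estimates of Snord21 (0.57), Snord22 (0.40), Snord104 (0.17), Snord17 (0.56), Snord8 (0.16) and Snord14d (0.31) turned positive. Rescaling to the same sum of FPKM gave 2 higher members and 8 host genes with a low p, and moved all gene totals from 669 lower and 175 higher to 235 and 879, with a median of 0.25. Rescaling by the median ratio gave 502 and 307. Without a trend, 2 host genes and 1 protein gene had a low p, where 5.24% of all gene totals were lower and 1.35% higher. Leaving out each library gave 0 to 2 higher members, 7 to 13 lower box H/ACA RNAs, 1 to 6 host genes and 1 to 3 protein genes. Of all gene totals, 3.41% to 7.23% were lower in these fits and 1.07% to 1.89% higher. With the replicate number as a block, 17 of 42 members were lower and 1 higher (40.5% and 2.38%, against 5.16% and 1.22% of all gene totals). Deviations of same-numbered libraries correlated at -0.03, -0.01 and -0.08, so no pairing by number was visible. With 3 libraries per group this cannot exclude a pairing, and the labels name none. Causes of these shifts were not tested. Depth limits members with few reads, and no box C/D RNA passed adjustment as reported. Snord14c passed it after rescaling to the same sum of FPKM (limma, Benjamini-Hochberg adjusted p 0.0141) and without Ctrl replicate 3 (0.0359), and not under the other alternatives (up to 0.798).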
